A study of Mus musculus with 8 samples.

Results

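The genes described here are Nfe2l2, which encodes the transcription factor Nrf2, its inhibitor Keap1, and 8 genes known as targets of Nrf2 or as enzymes of antioxidant defense: Nqo1, Osgin1, Gclc, Txnrd1, Srxn1, Gsta2, Gsta4 and Gstm3. They are 10 of the 18193 genes measured by a probe set with a single gene symbol, and every such probe set was taken, which gave 19 of the 45037 probe sets tested. RNA of whole liver from male KK-Ay/TaJcl mice, an obese model of type 2 diabetes, was measured on 8 Affymetrix mouse arrays, 1 array per mouse. The control diet (CD) group of 4 mice ate AIN-93G, and the PD group of 4 mice ate AIN-93G with 1 g of persimmon peel (PP) extract per kg for 8 weeks, a fat-soluble extract of dried peel. All mice were 14 weeks old and fasted for 3 h. The arrays were made from livers picked because the plasma total ketone bodies of those mice lay near the average of their group, so the spread within a group is that of picked mice.

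Nrf2 is a transcription factor that is held low in unstressed cells, because Keap1 brings it to a ubiquitin ligase built on Cul3 that marks it for degradation. Oxidants and electrophiles modify Keap1, Nrf2 then accumulates without need of more of its own mRNA, pairs with a small Maf protein and binds antioxidant response elements (ARE) in its target genes. In the liver these targets make glutathione, recycle thioredoxin and conjugate or reduce reactive compounds, and several glutathione transferases also respond to the nuclear receptor CAR or to the aryl hydrocarbon receptor. The arrays measured mRNA only, and neither the amount of Nrf2 protein nor its binding.

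Levels are on the log2 scale of the model-based expression index that the authors deposited, and a difference is PD minus CD on that scale. A probe set was called by the rank product, which ranks all probe sets by their ratio in each of the 16 pairings of 1 PD with 1 CD mouse, where its false discovery rate (FDR) was below 0.1. In simulated data this test called more unchanged probe sets than that FDR allows, so its FDR values may be too low. Array medians lay between 7.09 and 7.16. The 7 measured hepatocyte markers had a mean level of 13.1 to 13.2 in the CD mice and 13.0 to 13.1 in the PD mice, against a median of 7.13 over all probe sets. Of the 8 markers of stellate cells, 1 (Col3a1, a fibrillar collagen) was called higher in PD, the mean of those 8 ranged from 8.16 to 8.48 in CD and from 8.38 to 8.44 in PD mice, and its part in the results was not tested. In whole liver, fewer cells of a type and less RNA per cell cannot be told apart.

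The promoters of the called members and of Srxn1 are shown because they differ in whether they hold the core letters of an ARE. They are RefSeq sequences of GRCm38.p6, from 250 bases before to 50 after the annotated start, written 5′ to 3′ along the gene. Capitals mark matches, on either strand, to the ARE core TGACNNNGC, to TGAGNNNGC, or to the AP-1 core TGANTCA, which overlaps an ARE core where both fall on the same letters.
Osgin1, chr8:119436897-119437196, plus strand: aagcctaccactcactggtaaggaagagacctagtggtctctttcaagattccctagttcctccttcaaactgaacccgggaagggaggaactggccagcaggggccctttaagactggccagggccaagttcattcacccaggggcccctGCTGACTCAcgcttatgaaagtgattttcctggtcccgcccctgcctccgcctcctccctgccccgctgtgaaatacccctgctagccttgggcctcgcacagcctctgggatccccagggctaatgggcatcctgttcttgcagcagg
Srxn1, chr2:152105274-152105573, plus strand: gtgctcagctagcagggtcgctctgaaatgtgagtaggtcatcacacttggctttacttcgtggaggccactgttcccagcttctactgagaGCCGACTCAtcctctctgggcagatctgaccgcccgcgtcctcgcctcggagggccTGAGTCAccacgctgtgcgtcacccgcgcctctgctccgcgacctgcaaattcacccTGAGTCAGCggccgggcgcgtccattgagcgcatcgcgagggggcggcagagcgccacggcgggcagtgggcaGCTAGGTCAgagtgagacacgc
Gsta2, chr9:78347096-78347395, minus strand: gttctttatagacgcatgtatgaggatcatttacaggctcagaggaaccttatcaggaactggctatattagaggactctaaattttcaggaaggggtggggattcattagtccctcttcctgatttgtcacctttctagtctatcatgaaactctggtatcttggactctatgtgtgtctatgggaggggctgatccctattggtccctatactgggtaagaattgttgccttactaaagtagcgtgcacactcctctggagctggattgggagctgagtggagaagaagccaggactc
Gstm3, chr3:107969125-107969424, minus strand: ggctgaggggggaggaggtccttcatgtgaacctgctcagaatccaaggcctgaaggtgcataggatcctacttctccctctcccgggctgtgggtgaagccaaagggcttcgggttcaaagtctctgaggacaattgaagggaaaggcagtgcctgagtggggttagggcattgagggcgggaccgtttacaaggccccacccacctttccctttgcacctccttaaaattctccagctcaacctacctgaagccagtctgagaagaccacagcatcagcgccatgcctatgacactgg
The Osgin1 window held 1 match to TGAGNNNGC, starting 99 bases before the start site, and the AP-1 core lay within it. The Srxn1 window held 1 match to TGACNNNGC and 2 each to TGAGNNNGC and to the AP-1 core. The windows of Gsta2 and Gstm3 held none of these letters, which says nothing about elements outside the 300 bases. Over the 10 promoters of the 8 members in the table, TGACNNNGC was found in 3 (Nfe2l2, Srxn1 and 1 of 3 of Txnrd1), against 12.4% of 32851 promoters of the same length. TGAGNNNGC was found in 2, against 17.6%, and the AP-1 core in the same 2, against 7.81%. The core GCGTG of the element bound by the aryl hydrocarbon receptor was found in 7 of the 10 promoters, against 32.4%. These were Srxn1, Osgin1, Keap1, Gsta2 and all 3 of Txnrd1, so 3 of the 7 belong to 1 gene. No entry was found for Gclc and Gsta4.

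Among the 10 genes, Gstm3 was called higher in PD mice, Osgin1 and Gsta2 were called lower, and 7 genes were not called. In probe sets, 2 of 19 were called higher, against 0.218% of all probe sets, and 2 of 19 were called lower, against 0.258%. The genes were picked with these results known, and the probe sets of Gstm3, Osgin1 and Gsta2 are among those the study selected on the same arrays, so neither the counts nor the directions are independent evidence. Of the 19 differences, 9 were above 0 and 10 below, with a median of -0.04, against -0.00428 over all probe sets. A second test, limma with Benjamini-Hochberg adjustment over all probe sets, called 0 of the 19 at an adjusted p under 0.1, as it called 0% of all probe sets, and the lowest adjusted p among the members was 0.998. At an unadjusted p under 0.05 limma had 4 of the 19 (Osgin1, Nqo1 and both of Gstm3), against 3.65% of all probe sets. The 2 diet groups overlapped for all 19, while they did not overlap for 2.08% of all probe sets.

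**Figure D1:**
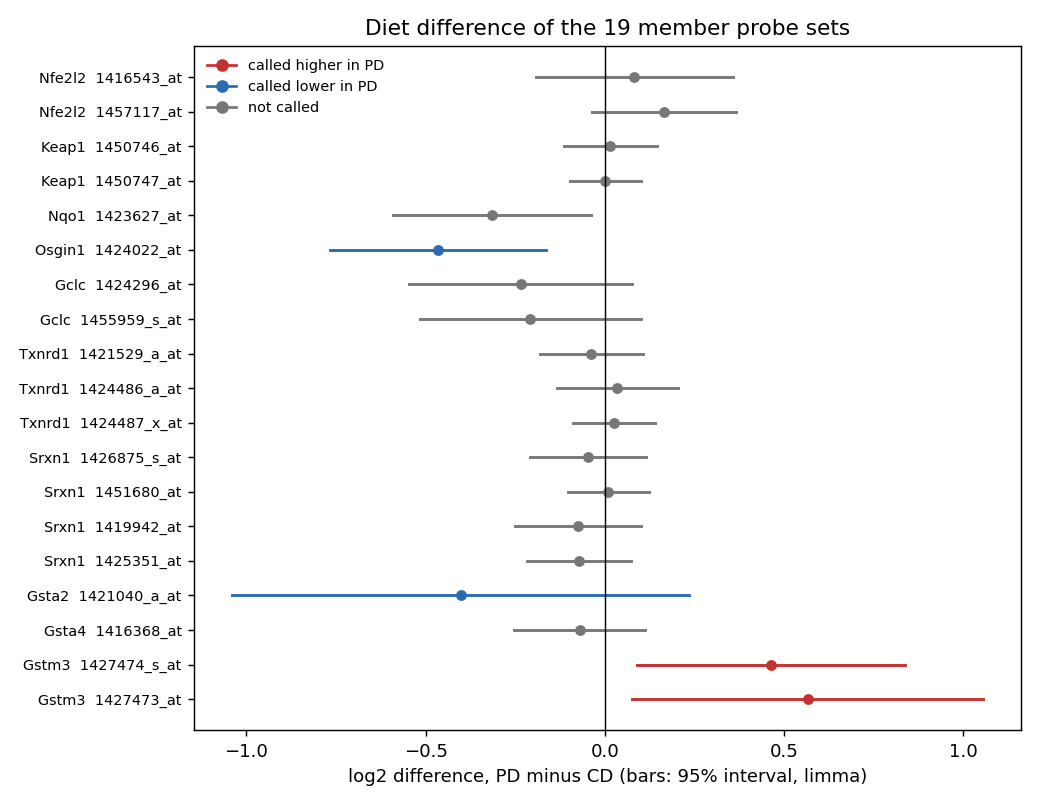
Log2 difference (PD minus CD, x axis) of each of the 19 probe sets of the 10 genes (y axis), with its 95% interval from limma, not adjusted for the number of probe sets. The called probe sets of Gstm3 lie above 0 and those of Osgin1 and Gsta2 below, the interval of Gsta2 reaches across 0, and 11 of the 19 differences are within 0.1 of 0.

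Nfe2l2 and Keap1, the regulator and its inhibitor, were not called. Nfe2l2 (1416543_at) measured 10.02, 10.37, 10.34 and 10.42 in CD replicates 1 to 4 and 10.64, 10.01, 10.43 and 10.39 in PD replicates 1 to 4. The mice overlapped throughout, with the lowest and the highest value both in PD mice. Its difference was 0.08 (95% interval -0.19 to 0.36, limma), and the sign turned when replicate 1 of either diet was left out (-0.01 for each), while it reached 0.20 with PD replicate 2 left out. The second probe set of Nfe2l2 (1457117_at) differed by 0.17 (-0.03 to 0.37), and the 2 probe sets had a Pearson r of 0.296 over the 8 mice. Keap1 (1450746_at) measured 9.16, 9.04, 9.19 and 9.24 in CD and 9.17, 9.06, 9.23 and 9.25 in PD mice. It differed by 0.01 (-0.11 to 0.14), the other Keap1 probe set (1450747_at) by 0.00 (-0.10 to 0.10), and no mouse stood apart in either.

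Osgin1, a growth-inhibiting gene induced by oxidative stress, was lower in PD mice by 0.47 (95% interval -0.77 to -0.16, limma), which is 1.38-fold. Its probe set (1424022_at) measured 10.59, 10.28, 10.56 and 10.87 in CD and 10.14, 9.82, 10.06 and 10.43 in PD mice. In 3 of the 4 PD mice it lay below the lowest CD mouse, and PD replicate 4 lay inside the CD range. The means were 10.58 ± 0.24 and 10.11 ± 0.25 (SD, n = 4 each; rank product FDR 0.0229; two-sided exact permutation test, p = 0.0571, where 0.0286 is the smallest p that 4 against 4 can give). The direction held without each mouse in turn, with differences of -0.57 to -0.37. The call was lost without CD replicate 1 (-0.46, FDR 0.162), CD replicate 3 (-0.47, FDR 0.148) or CD replicate 4 (-0.37, FDR 0.172). Over all probe sets the lower calls fell as well, from 116 to 16, 34 and 68 in these runs. They fell to 41 without CD replicate 2, where the call of Osgin1 was kept.

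Nqo1, a quinone reductase often used as a readout of Nrf2, was lower by 0.32 in PD mice on average and was not called (FDR 0.171). Its probe set (1423627_at) measured 7.87, 7.80, 7.68 and 7.94 in CD mice, with means of 7.82 ± 0.11 and 7.51 ± 0.30 (SD, n = 4 each). The PD mice measured 7.70, 7.20, 7.32 and 7.82. PD replicates 2 and 3 lay below every CD mouse, while PD replicates 1 and 4 lay within the CD range. The 95% interval from limma was -0.59 to -0.04, and the two-sided exact permutation test gave p = 0.143. Nqo1 was called lower without PD replicate 1 (-0.38, FDR 0.0504) or PD replicate 4 (-0.42, FDR 0.0397). It was not called without any other mouse, with differences of -0.36 to -0.21 and FDR values of 0.33 to 0.529, the smallest difference being that without PD replicate 2. Lower calls over all probe sets also moved, from 116 to 207 without PD replicate 1 and 125 without PD replicate 2. They were 16, 41, 34 and 68 without CD replicates 1 to 4.

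Gclc encodes the catalytic subunit of the enzyme that limits glutathione synthesis, and it was not called. It measured 12.27, 12.20, 12.28 and 12.04 in CD and 12.27, 11.50, 11.90 and 12.18 in PD mice (1424296_at). PD replicates 2 and 3 were below every CD mouse, and the other PD mice were within the CD range. Its difference was -0.23 (95% interval -0.55 to 0.08, limma; FDR 0.435), and -0.08 without PD replicate 2. The second probe set (1455959_s_at) differed by -0.21 (-0.52 to 0.10; FDR 0.491), and by -0.07 without PD replicate 2, and the 2 followed each other over the 8 mice with r = 0.983. Gclm, the modifier subunit of the same enzyme, differed by -0.14 and was not called, and its lowest mouse was also PD replicate 2 (11.31, against 11.64 to 11.77 in CD mice).

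Txnrd1, the cytosolic thioredoxin reductase, and Srxn1, which repairs overoxidised peroxiredoxins, were not called with any probe set. The 3 probe sets of Txnrd1 differed by -0.04, 0.03 and 0.03. The 4 of Srxn1 differed by -0.05, 0.01, -0.08 and -0.07. Txnrd1 (1421529_a_at) measured 9.73, 9.97, 9.84 and 9.98 in CD and 9.93, 9.84, 9.76 and 9.84 in PD mice. Every PD value lay within the CD range. Srxn1 (1426875_s_at) measured 8.54, 8.84, 8.72 and 8.80 in CD and 8.80, 8.69, 8.57 and 8.66 in PD mice, again all within the CD range. The widest 95% interval among these 7 probe sets, that of Srxn1 1419942_at, ran from -0.25 to 0.10.

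**Figure D2:**
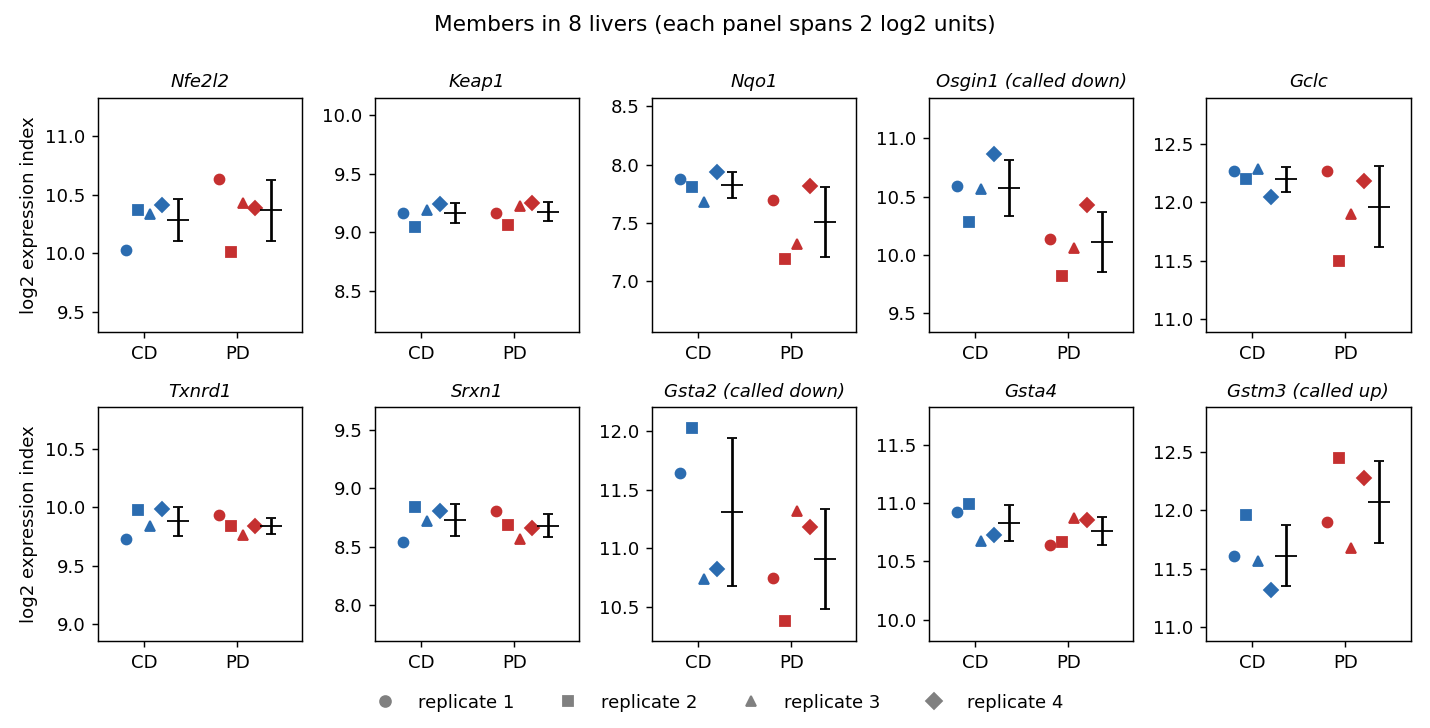
Log2 expression index (y axis) of 1 probe set for each of the 10 genes in the 4 CD (blue) and 4 PD (red) mice, with a marker shape for each replicate number and the mean ± SD in black. Each panel spans the same 2 log2 units, Osgin1 has 3 of 4 PD mice below every CD mouse, and Gsta2 has the widest CD spread (SD 0.63).

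Of the 3 glutathione transferases, which join glutathione to reactive compounds, Gstm3 was called higher, Gsta2 was called lower and Gsta4 was not called. Gstm3 (1427474_s_at) measured 11.61, 11.95, 11.56 and 11.31 in CD and 11.90, 12.44, 11.67 and 12.28 in PD mice. PD replicates 2 and 4 lay above every CD mouse and the other PD mice did not. Its difference was 0.46 (95% interval 0.09 to 0.84, limma), 1.38-fold, between means of 11.61 ± 0.26 and 12.07 ± 0.35 (SD, n = 4 each; FDR 0.0164; two-sided exact permutation test, p = 0.0857). The suffix of this probe set marks one that may also detect related genes. The second probe set (1427473_at), without that suffix, measured 7.82, 8.39, 7.81 and 7.58 in CD and 8.24, 9.004, 7.95 and 8.68 in PD mice. It differed by 0.57 (0.08 to 1.05), 1.48-fold (FDR 0.00441; two-sided exact permutation test, p = 0.143). The 2 probe sets ordered the 8 mice identically (Spearman rho 1), so they count as 1 observation of the gene. Both calls were lost without PD replicate 2 (0.34 and 0.39) or PD replicate 4 (0.39 and 0.49). Higher calls over all probe sets fell from 98 to 38 without PD replicate 2.

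Gsta2 (1421040_a_at) measured 11.65, 12.03, 10.74 and 10.83 in CD and 10.75, 10.38, 11.32 and 11.19 in PD mice. CD replicates 1 and 2 were high and CD replicates 3 and 4 low, and 1 PD mouse lay below the CD range. Its difference was -0.40 (95% interval -1.04 to 0.24, limma), with means of 11.31 ± 0.63 and 10.91 ± 0.43 (SD, n = 4 each; FDR 0.0537; two-sided exact permutation test, p = 0.4). The difference is thus smaller than the spread between the CD mice. The call was lost without CD replicate 1 (-0.29), CD replicate 2 (-0.16) or PD replicate 2 (-0.23). In these runs the lower calls over all probe sets were 16, 41 and 125, against 116. Gsta4, which detoxifies products of lipid peroxidation, measured 10.92, 10.99, 10.68 and 10.73 in CD and 10.64, 10.67, 10.87 and 10.86 in PD mice and differed by -0.07 (-0.25 to 0.11). As for Gsta2, CD replicates 1 and 2 and PD replicates 3 and 4 were its higher mice. The mean of 8 macrophage markers, all measured and 0 called, split the CD mice the other way, at -0.20 and -0.25 from its mean over all mice in CD replicates 1 and 2 and 0.19 and 0.22 in CD replicates 3 and 4. In the PD mice the macrophage mean lay between -0.04 and 0.04 from it, and its levels ranged from 8.44 to 8.91 in CD and from 8.64 to 8.73 in PD mice. Marco, a macrophage marker, did not follow this split and was lowest in CD replicate 3, at 7.26. Other marker means also split the CD mice. In CD replicates 1 to 4 the endothelial mean lay at -0.11, -0.08, 0.16 and 0.02, and the stellate mean at -0.11, -0.20, 0.12 and -0.07. The means for hepatocytes (0.12, 0.02, -0.03 and -0.03) and pancreas (0.06, 0.12, -0.10 and -0.04) went with Gsta2. The part of these means in the values of Gsta2 and Gsta4 was not tested.

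PD replicate 2 held the lowest of the 8 values for 5 of the 10 genes (Nfe2l2, Nqo1, Osgin1, Gclc and Gsta2) and the highest for Gstm3. It was also the lowest mouse for 22 of the 83 genes of 5 wider lists of the pathway, against 4 to 16 genes for each other mouse. How often it was lowest over all probe sets was not counted. By list it was lowest for 2 of 13 partners of Nrf2 (CD replicates 1 and 3 for 3 each) and 4 of 17 other glutathione transferases (CD replicate 4 for 6). It was lowest for 6 of 20 genes of peroxide and superoxide defense, and for 3 of 13 targets of CAR and the aryl hydrocarbon receptor (CD replicate 3 also for 3). It was lowest for 7 of the 20 other Nrf2 targets. Their mean level in this mouse was -0.13 from that over all mice, the next lowest being CD replicate 4 at -0.06. PD replicate 4 lay about as far on the other side, at 0.13. Gclm, Ephx1 and Aox1, picked after their values were seen, are among these 7 targets. In PD replicate 2 Ephx1, an epoxide hydrolase, was at 12.17 against 12.44 to 12.81 in the other mice. Aox1, an aldehyde oxidase, was at 10.64 in PD replicate 2 against 11.09 to 11.32. The mean correlation of this array with the others over all probe sets was 0.993, within the range of 0.992 to 0.994 for the 8 arrays.

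Whether the genes rose and fell together from mouse to mouse was asked over the 8 mice for all 45 pairs of genes, with 1 probe set per gene. By Pearson's r 3 pairs had a Benjamini-Hochberg adjusted permutation p under 0.05, and by Spearman's rho 0 had, the lowest adjusted p being 0.0502. The mice of both diets enter each r.
Txnrd1 and Srxn1 had r = 0.972 (permutation p = 0.000322, adjusted 0.00781) and rho = 0.952 (permutation p = 0.00114, adjusted 0.0502). Without the 2 mice farthest from the median of Txnrd1 r was 0.978. With the mean of all probe sets of each gene it fell to 0.237, and among the 4 probe sets of Srxn1 and among the 3 of Txnrd1 only Srxn1 1419942_at and 1425351_at followed each other (r = 0.961, the next highest being 0.539), so this pair rests on the probe set chosen. Its adjusted p was above 0.05 without CD replicate 1 (0.0625), PD replicate 1 (0.0595) or PD replicate 3 (0.058), with r between 0.957 and 0.985 when 1 mouse was left out.
Gsta2 and Gsta4 had r = 0.954 (permutation p = 0.000347, adjusted 0.00781) and rho = 0.929 (permutation p = 0.00223, adjusted 0.0502). It was 0.896 without the 2 mice farthest from the median of Gsta2, and 0.957 with each value taken from the mean of its diet. Its adjusted p was above 0.05 without CD replicate 1 (0.0625) or PD replicate 3 (0.058), with r between 0.931 and 0.974 when 1 mouse was left out.
Nqo1 and Osgin1 had r = 0.860 (permutation p = 0.00221, adjusted 0.0331) and rho = 0.857 (permutation p = 0.0107, adjusted 0.161). It was 0.677 without the 2 mice farthest from the median of Nqo1 (PD replicates 2 and 3), and 0.753 with each value taken from the mean of its diet. When 1 mouse was left out, r lay between 0.754 (without PD replicate 2) and 0.90, and the adjusted p stayed under 0.05 only without CD replicate 2 (0.0417).
Osgin1 and Gstm3, called in opposite directions on these same 8 arrays, had r = -0.719 (permutation p = 0.0457, adjusted 0.411) and rho = -0.738 (permutation p = 0.0458, adjusted 0.516). Opposite calls push r over both diets below 0, so these p-values are no independent evidence of a link. Within diets r was -0.465. Over both diets r was -0.17 without the 2 mice farthest from the median of Osgin1 and -0.80 without the 2 farthest from the median of Gstm3. It lay between -0.87 and -0.53 when 1 mouse was left out, so its size depends on which mice enter. The r of Nfe2l2 mRNA with the other 9 genes ranged from -0.24 to 0.52. Nqo1 and Gclc had r = 0.804 (permutation p = 0.025, adjusted 0.282), which changed to -0.76 without the 2 mice farthest from the median of Nqo1.

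**Figure D3:**
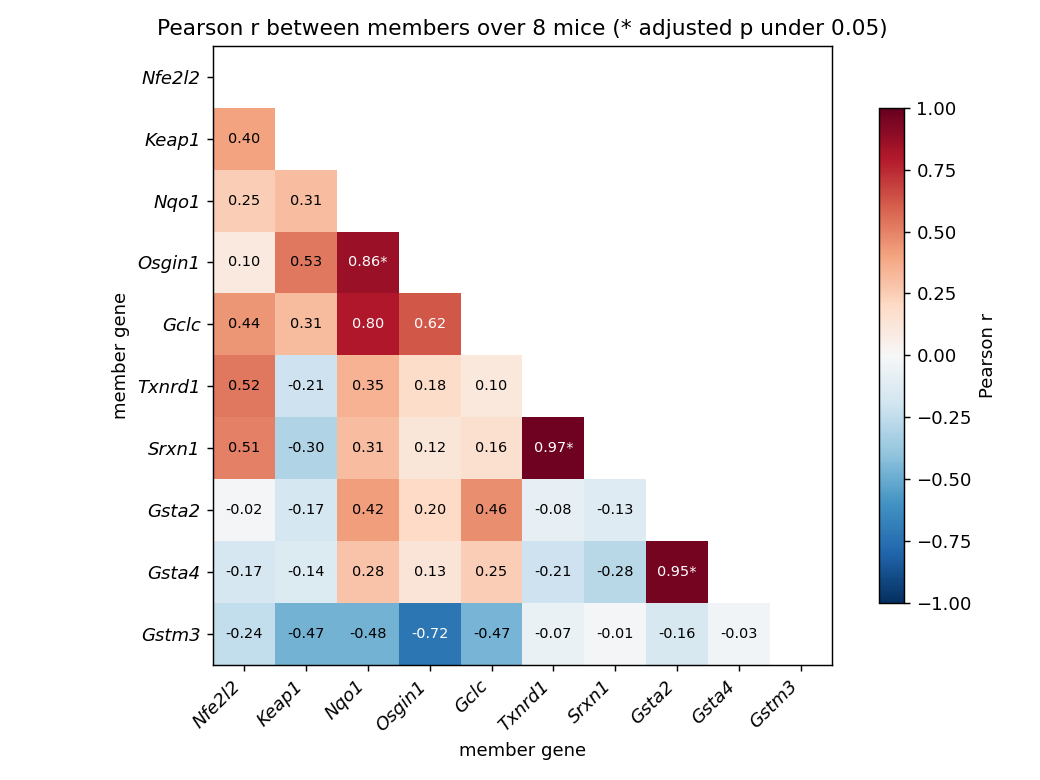
Pearson r over the 8 mice between each pair of the 10 genes (both axes), from blue at -1 to red at 1, with a star on pairs whose Benjamini-Hochberg adjusted permutation p is under 0.05. The 3 starred pairs are Txnrd1 with Srxn1, Gsta2 with Gsta4 and Nqo1 with Osgin1.

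The genes most like each member over the 8 mice, as a description with no test and out of 12102 genes whose mean lay above the median of all probe sets, were as follows. For Osgin1 they were Atp2a2, the calcium pump of the endoplasmic reticulum (r = 0.969), Nfe2l1, the relative of Nrf2 (0.956), and Zdhhc7 (0.937). For Nqo1 they were Adam21 (0.963), Myd88, an adaptor of Toll-like receptors (0.952), and Mtmr4 (0.930). For Gstm3 they were Oxnad1 (0.963), Kctd9 (0.957) and Defb45 (0.950). For Gsta2 they were St3gal2 (0.972), Fam209 (0.972) and Socs7 (0.965), and for Nfe2l2 Usp46 (0.954), Zfp770 (0.947) and Tsen15 (0.944).

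Of 83 measured genes in 5 wider lists of the pathway and of genes that answer to CAR and the aryl hydrocarbon receptor, 1 was called higher in PD and 0 lower, against 0.218% and 0.258% of all probe sets. Of these 83 differences, 51 were above 0, and their median was 0.02, against -0.00556 over 18193 genes with 1 probe set each. At an unadjusted limma p under 0.05 there were 3 of the 83 (Pgd, Gstm5 and Prdx3), a share near the 3.65% of all probe sets. Among 13 partners of Nrf2 and genes of its turnover, 0 were called, with Cul3 at 0.05, Sqstm1, an autophagy receptor that binds Keap1, at -0.09 and Mafg, a small Maf partner, at 0.01.
Among 20 other targets 0 were called. Gclm differed by -0.14, Hmox1, the heme oxygenase, by -0.05, Txn1, thioredoxin, by 0.05, and Gsr, glutathione reductase, by 0.04. The largest was Pgd, of the pentose phosphate pathway, at 0.23, with 3 of 4 PD mice above every CD mouse (9.63 to 10.02, against 9.42 to 9.79 in CD mice).
Among 17 other glutathione transferases 0 were called. Gstm1 differed by 0.07, Gstm2 by 0.04, and Gstp1 by -0.12. Gstm5 was 8.86 ± 0.06 in CD and 9.01 ± 0.06 in PD mice (SD, n = 4 each), and the groups did not overlap (two-sided exact permutation test, p = 0.0286, the smallest possible), as they do not for 2.08% of all probe sets.
Among 20 genes of peroxide and superoxide defense 0 were called, with Cat, catalase, at -0.06, Gpx1, a glutathione peroxidase, at 0.01, and Prdx3, the mitochondrial peroxiredoxin, at 0.11 with groups that did not overlap (10.45 to 10.52 in CD and 10.57 to 10.63 in PD mice). Gstm5 and Prdx3 were the only genes of the 83 with groups that did not overlap, a share near the 2.08% of all probe sets.
Among 13 targets of CAR and of the aryl hydrocarbon receptor, Cyp2b9 was called higher at 0.51 (FDR 0.0278), and Cyp1a1 differed by -0.01. Cyp2b9 measured 6.88, 7.98, 7.87 and 7.09 in CD and 7.54, 7.34, 7.30 and 9.69 in PD mice. PD replicate 4 alone lay above the CD range, and without it the difference was -0.06 and was not called, nor was it without CD replicate 1 (0.32). Cyp2b10, a target of CAR, differed by -0.25 (FDR 0.104) and was 7.00 in CD replicate 3 against 7.99 to 8.18 in the other CD mice.

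**Figure D4:**
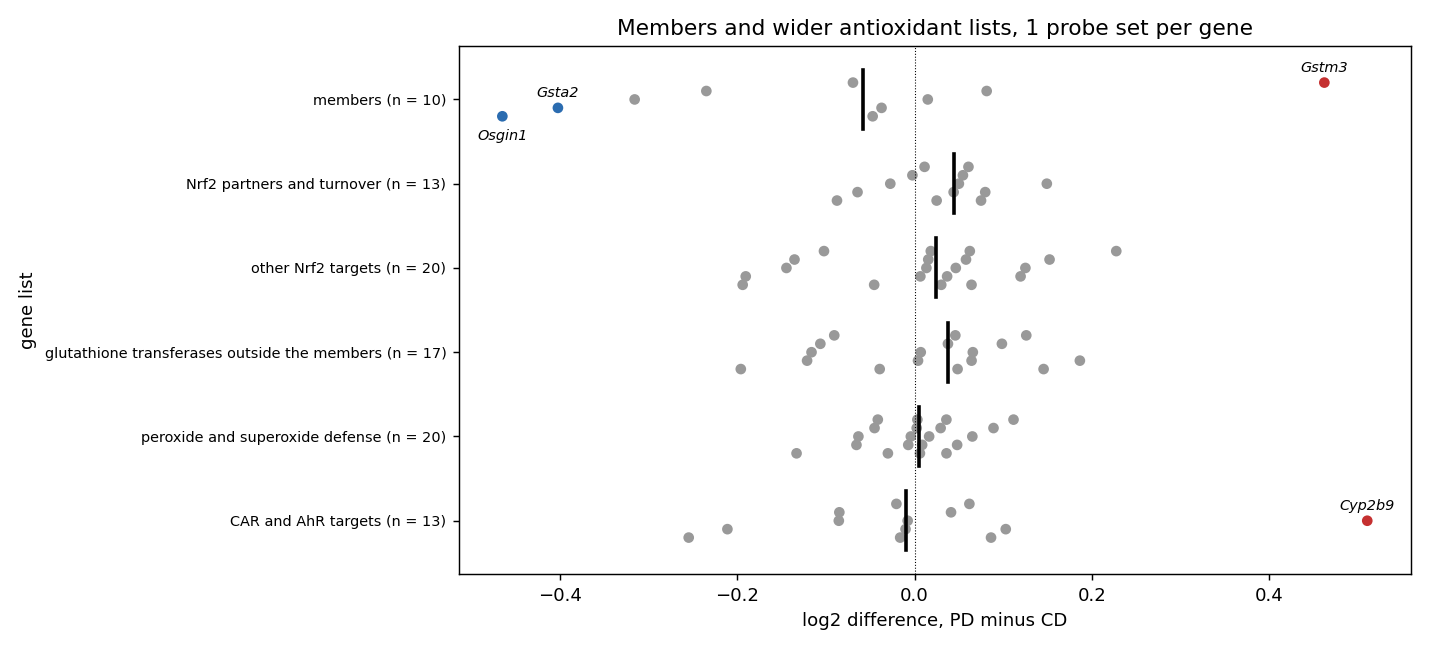
Log2 difference (PD minus CD, x axis) of each measured gene, with 1 probe set per gene, in the 10 genes described and in 5 wider lists (y axis), with the list median as a black bar and called genes in red (higher) or blue (lower). Within the 5 wider lists only Cyp2b9 is called, and its difference rests on PD replicate 4.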

How the data were processed

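RNA from the livers of 4 CD and 4 PD mice was hybridised to Affymetrix arrays, 1 per mouse. Deposited were the authors' expression indices from a probe-level model, on a log2 scale, and the submitters' processing notes name R 2.7.2. The sources used here do not say how the arrays were normalized to each other, so a shift common to all probe sets could not be measured. After 64 control probe sets were removed, 45037 remained for the tests, and the platform annotation gave 34945 of them 1 gene symbol, 932 several and 9160 none. A probe set that carries a member's symbol together with others (1 of them) was left out. Groups came from the diet in the labels, and no batch or scan date was given.

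The rank product ran over 16 pairs of arrays with 1000 permutations in Python 3.11.15 (numpy 2.4.6, pandas 2.3.3, scipy 1.17.1), with calls at an FDR under 0.1, and limma 3.58.1 in R 4.3.3 was fitted over all probe sets. Exact permutation tests used all 70 splits of 4 against 4, and correlations were tested by permutation. The code was tested on simulated data, where both tests found most changed probe sets and the rank product also called more unchanged ones than its FDR allows. The precision is limited by the 8 arrays. Genes named are the 10 members with all their probe sets, genes of the wider lists that were called, a fixed set of pathway genes, and for 5 members the 3 genes most like them, and Pgd, Gstm5, Prdx3, Mafk, Sod1, Txn2, Ephx1, Aox1 and Col3a1 were added after their values were seen. Gsta1, of the fixed set, was not analysed here, nor were Prdx1, G6pdx, Ftl1, Cyp2a5, Ugt1a6a, Prdx5 and Prdx6. The members and lists were chosen with earlier results of these data known. Alternatives were an FDR of 0.05, a block for the replicate number, quantile normalization, centring, 16 added before log2, leaving out dim probe sets or those that may detect several genes, 100 permutations, each gene as the mean of its probe sets, limma (plain, with a trend, with array weights), the methods' t-test and leaving out each mouse. The motif TGAGNNNGC, the correlations between probe sets of one gene, the count of lowest values per mouse and the counts over all probe sets were added after seeing the data.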

Additional observations from a re-analysis of the deposited data

Results flagged for a closer look

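Within groups of 4 mice, 38 groups (19 probe sets in 2 diets) were examined for a value far from the others, and 1 stood out, where chance gives about 5%. The second Gclc probe set (1455959_s_at) measured 11.46 in CD replicate 4, against 11.73 to 11.76 in the other CD mice, a gap of 0.898 of the group's range.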

How the results depend on the processing

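The called probe sets of the members kept their direction under every alternative run, and no called probe set changed sign, while 7 uncalled ones did at least once. Of the differences under the alternatives, 374 stayed on the same side of the call, 35 lost it and 2 gained it, both for Nqo1. The 2 higher calls fell to 1 without probe sets that may detect several genes, and to 0 under limma at an adjusted p under 0.1, limma with array weights, limma with robust variances and a trend, and the methods' t-test at p under 0.05 and after Benjamini-Hochberg adjustment, where the 2 lower calls fell to 0 except at p under 0.05, with 1 (Osgin1). At an FDR under 0.05 1 lower call was kept, that of Osgin1. Leaving out each mouse gave 0 to 2 higher calls and 0 to 3 lower calls. Over all probe sets these ranges were 27 to 190 higher and 16 to 207 lower, against 98 and 116, and at an FDR under 0.05 55 were lower, and 68 with the filter on dim probe sets, while the t-test at p under 0.05 gave 831 and 880. The cause was not tested.

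In the wider lists the 1 higher call, Cyp2b9, fell to 0 under the limma settings and the adjusted t-test and was 0 to 1 when each mouse was left out. Cyp2b10 made 1 lower call against 0 with 100 permutations, the mean of all probe sets, 16 added before log2 and quantile normalization, and 0 to 1 when each mouse was left out. The t-test at p under 0.05 gave 5 higher (Mafk, Txn1, Gstm5, Prdx3 and Txn2) and 1 lower (Sod1). The 3 correlated pairs became 0 to 3 when each mouse was left out, with 0 without CD replicate 1 or PD replicate 3 and 1 without PD replicate 1.

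Replicate numbers are shared by the diets, but over all probe sets same-numbered mice did not deviate together (r -0.00078, -0.00031, -0.03 and -0.06). An r over all probe sets cannot show whether single genes followed the number. The limma standard error of the Osgin1 difference was 0.136 without a block for the number and 0.0463 with it. For Gsta2 it was 0.288 without and 0.335 with the block. With the replicate block the rank product kept 2 higher and 1 lower call among the members, losing Gsta2 (FDR 0.117), and called 1 higher and 1 lower gene in the wider lists. Limma with the replicate block called 0 higher and 0 lower in either. Osgin1 had an unadjusted p of 1.19e-05 and an adjusted p of 0.179 with it, against an unadjusted limma p of 0.00605 without it. The labels pair no CD mouse with a PD mouse, so the block is only an alternative setting. Its unadjusted p is thus no evidence of a paired effect.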
